A study of Mus musculus with 8 samples.

Results

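Ciita and the genes of the major histocompatibility complex (MHC) class II pathway were followed through Romidepsin treatment in cultured murine MDSCs, the myeloid-derived suppressor cells known for holding T cells back. The set was a fixed list of 10 genes, taken by name: the regulator Ciita, the invariant chain gene Cd74, the classical chain genes H2-Aa, H2-Ab1 and H2-Eb1, and the non-classical chain genes H2-DMa, H2-DMb1, H2-DMb2, H2-Oa and H2-Ob. All 10 were found among the 26930 gene identifiers of the table, and all 10 passed the filter on low counts that left 12852 genes to test.

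The Romidepsin group held 4 libraries from senescent-like bone marrow MDSCs given Romidepsin, an inhibitor of histone deacetylases, at 0.5 µM for 6 h. The untreated group held 4 libraries from such cells without the compound. Both groups were C57BL/6 bone marrow cultured with GM-CSF and IL-6, each at 40 ng/ml, and moved on day 4 into medium conditioned by TRAMP-C1, a mouse prostate tumour line. The labels give no age and do not say whether the 4 libraries of a group came from different mice or cultures. The p-values therefore speak of the variation among these libraries, part or all of which could be technical. The cells are a culture model without a sort, and other marrow cells may be present.

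The MHC class II molecule is a pair of an alpha and a beta chain that shows peptides from endosomes to CD4+ T cells. Its chains are folded with the invariant chain, whose last fragment is later exchanged for peptide with the help of H2-M, the pair made from H2-DMa and an H2-DMb chain, while H2-O, made from H2-Oa and H2-Ob, restrains H2-M. Ciita does not bind DNA itself. It is a co-activator that is recruited by RFX, CREB and NF-Y proteins bound at the X and Y boxes of class II promoters, and its own transcription differs strongly between cell types and is raised by interferon gamma. Dendritic cells, B cells and macrophages are the cell types best known for class II. In C57BL/6 mice the alpha chain gene that would pair with H2-Eb1 is inactive.

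In GRCm38 with the GENCODE annotation, Ciita spans chr16:10480059-10528418 on the plus strand, and Cd74 lies on another chromosome. The other 8 genes lie in the class II region, from the start of H2-Oa at chr17:34092340 to the end of H2-Eb1 at 34316674. H2-Aa is on the minus strand (chr17:34282744-34287823), and H2-Ab1 lies at chr17:34257689-34269419 on the plus strand. H2-DMb2 (chr17:34143307-34151555) and H2-DMb1 (chr17:34153072-34160230) are neighbours and close copies. Of the 75-base stretches of H2-DMb2 transcripts 14.6% also occur in H2-DMb1, and 15.8% of those of H2-DMb1 occur in H2-DMb2, so part of their reads could be assigned to either. On the opposite strand, Dexi overlaps exons of Ciita by 329 bases, Brd2 overlaps H2-DMa by 360 bases and BC051537 overlaps H2-Oa by 321 bases. The strand setting of the counting is not given in the sources used here, so reads from such overlaps cannot be told apart.

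The promoter stretches below are shown because Ciita is known to reach class II genes through X and Y boxes. RefSeq promoter windows (GRCm38.p6) were matched for 7 of the 10 genes, and the 250 bases before each start were searched on both strands. Capitals mark TGATTGG, the reverse complement of a CCAAT box and the core of the Y box, and GNAAC, the core of the X box, where it stood 15 to 35 bases before TGATTGG. The 2 motifs do not overlap. Their letters were chosen with these promoters in view.
H2-Aa: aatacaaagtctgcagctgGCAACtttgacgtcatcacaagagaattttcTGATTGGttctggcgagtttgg
H2-Eb1: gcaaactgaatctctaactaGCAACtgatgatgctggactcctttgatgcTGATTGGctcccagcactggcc
H2-DMb1: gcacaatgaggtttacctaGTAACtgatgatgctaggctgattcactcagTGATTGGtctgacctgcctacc
H2-DMb2: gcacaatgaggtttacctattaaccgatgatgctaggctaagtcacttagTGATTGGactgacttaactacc
H2-Oa: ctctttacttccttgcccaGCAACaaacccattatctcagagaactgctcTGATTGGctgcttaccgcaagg
H2-Ob: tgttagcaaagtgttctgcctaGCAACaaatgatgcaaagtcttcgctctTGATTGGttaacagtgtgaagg

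Each stretch is 72 bases long, on the strand of its gene, and lies at chr17:34287852-34287923 (minus strand) for H2-Aa, chr17:34305756-34305827 for H2-Eb1, chr17:34153078-34153149 for H2-DMb1, chr17:34145107-34145178 for H2-DMb2, chr17:34092284-34092355 for H2-Oa and chr17:34238796-34238867 for H2-Ob. The gap from GNAAC to TGATTGG was 26 bases in H2-Aa, H2-DMb1 and H2-Oa, 25 in H2-Eb1 and 23 in H2-Ob. The stretch of H2-DMb2 held no GNAAC at such a spacing. Over the 32851 RefSeq promoter windows, TGATTGG was present in 7.23% and the spaced pair in 0.484%. The windows of H2-DMa held no TGATTGG. The stretches of H2-DMb1 and H2-DMb2 differed at 9 of 72 positions, and G20T, counted from 1 at the left end with the base of H2-DMb1 first, falls in GNAAC. A match is a description of letters and not a measured binding site.

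Across the transcriptome, 16.2% of the 12852 genes tested were called lower (2080 genes) and 20.3% higher (2610 genes) in Romidepsin cells by edgeR's quasi-likelihood test at an adjusted p of 0.05. Scaling by library size alone gave 1369 lower and 3878 higher and shifted the median log2 fold change by 0.30, and scaling to housekeeping genes gave 614 and 5775 with a shift of 0.70. Total counts per library lay between 12996892 and 23176949. The MDSC marker Itgam was at 168 to 711 CPM in Romidepsin cells and 406 to 901 CPM in untreated cells, and Ly6c2 was at 123 to 1220 CPM in Romidepsin cells and 572 to 1744 CPM in untreated cells. Ly6g was at 1.37 to 11.5 CPM in Romidepsin cells and 4.68 to 19.5 CPM in untreated cells. CPM here is counts relative to library size after edgeR's trimmed-mean scaling (TMM), and fold changes are log2 values of Romidepsin over untreated with their standard error (SE).

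Ciita fell after Romidepsin and was the only one of the 10 genes whose groups did not overlap. It was counted at 1.15, 2.16, 2.58 and 2.91 CPM in Romidepsin replicates 1 to 4, against 104, 45.2, 28.8 and 47.3 CPM in untreated replicates 1 to 4. Every Romidepsin library lay below every untreated library by a wide margin, and the untreated libraries differed among themselves more than the treated ones. These levels rest on 20, 34, 39 and 45 counts in Romidepsin cells and on 1301, 548, 351 and 980 counts in untreated cells. Ciita averaged 2.20 ± 0.765 CPM in Romidepsin cells and 56.3 ± 32.8 CPM in untreated cells (SD, n = 4 each). The log2 fold change was −4.68 ± 0.47 (SE; 95% interval −5.74 to −3.62), with an adjusted p of 6.72e-04 by edgeR's quasi-likelihood test. That leaves 3.90% of the untreated mean. In order of fold change, Ciita stood at place 9 from the lowest among the 12852 genes tested.

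**Figure D1:**
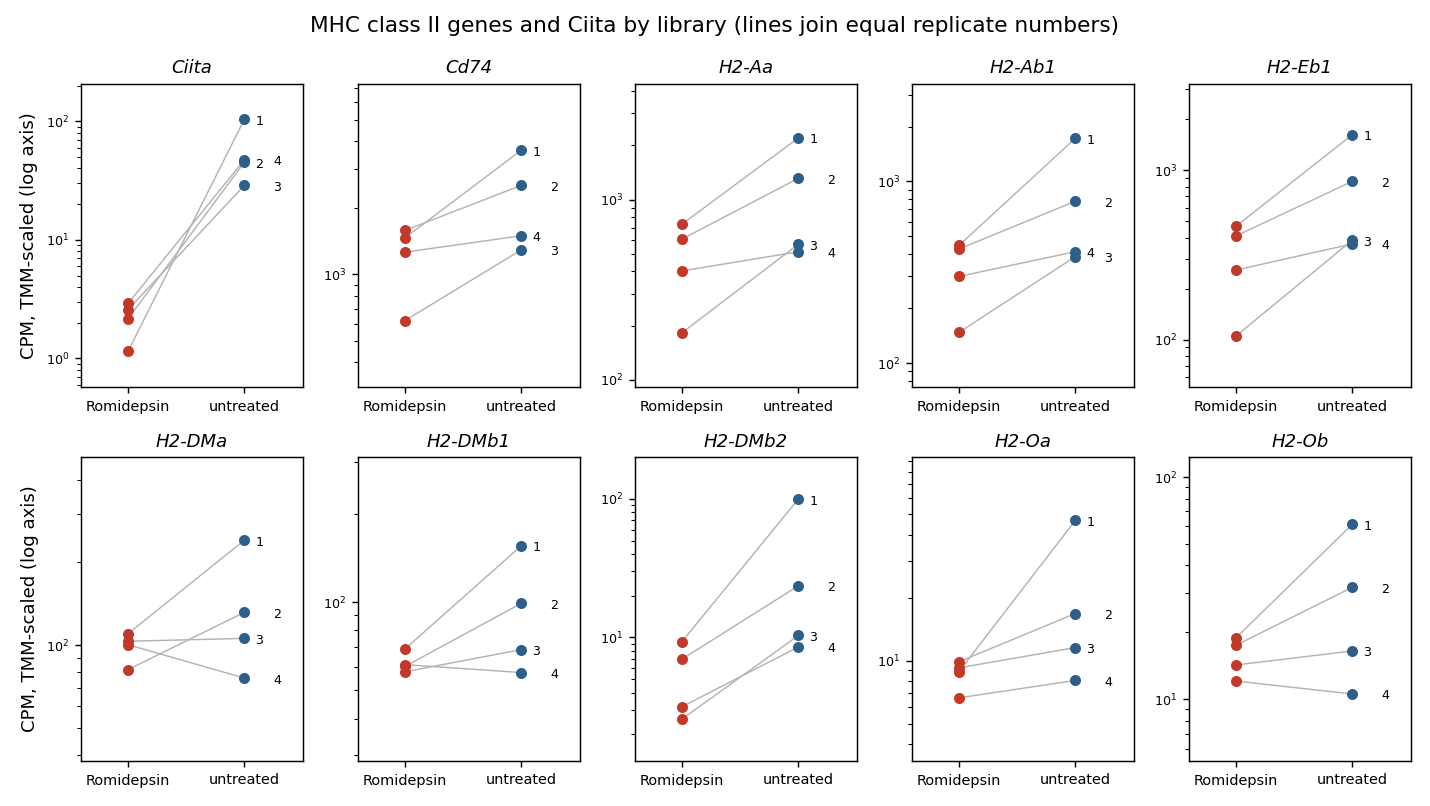
TMM-scaled CPM (log axis, its range set per panel) of the 10 genes in the 4 Romidepsin libraries (red, left) and the 4 untreated libraries (blue, right), each point a library, with grey lines joining libraries of the same replicate number. For Ciita the Romidepsin libraries lie at 1.15 to 2.91 CPM and the untreated at 28.8 to 104 CPM, while the groups of the other 9 genes overlap.

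The classical chain genes pointed lower as well, by far less, and none of the 3 passed the unpaired test. H2-Ab1, the beta chain of the I-A molecule, was at 444, 424, 147 and 299.6 CPM in Romidepsin replicates 1 to 4, against 1725, 777, 385 and 410.3 CPM in untreated replicates 1 to 4. Each treated library was lower than the untreated library of its number, but the groups overlapped, because untreated replicates 3 and 4 lay below treated replicates 1 and 2. The log2 fold change was −1.33 ± 0.53 (SE), with an adjusted p of 0.0774. With the replicate number as a block it was −1.17, with an adjusted p of 0.0145.

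H2-Aa, the I-A alpha chain, was at 730.4, 604, 183 and 402 CPM in Romidepsin replicates 1 to 4, against 2195, 1311, 566 and 514 CPM in untreated replicates 1 to 4. It had the same order of libraries within the treated group as H2-Ab1, with replicate 3 lowest. The log2 fold change was −1.26 ± 0.56 (SE), with an adjusted p of 0.102 unpaired and 0.0118 with the block. H2-Eb1, the beta chain without a partner in this strain, was at 466, 409, 105 and 257 CPM in Romidepsin replicates 1 to 4, against 1617, 858, 386 and 367 CPM in untreated replicates 1 to 4. In log2 terms the change was −1.38 ± 0.58 (SE), with an adjusted p of 0.0882 unpaired and 0.00943 with the block. The numbers of lower and higher classical chains were 0 and 0 of 3 by the unpaired edgeR test, with 3 lower at an unadjusted p under 0.05, 3 lower by the DESeq2 Wald test, 0 by limma-voom and 3 with the block. Of all 12852 genes, 16.2% were lower by the unpaired edgeR test and 20.8% with the block. The DESeq2 Wald test called 2794 of them lower and limma-voom 2408.

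The invariant chain gene Cd74, the most abundant of the set, was at 1464, 1582, 619 and 1262 CPM in Romidepsin replicates 1 to 4. It was at 3650, 2529.6, 1293 and 1496 CPM in untreated replicates 1 to 4. The groups overlapped, and all 4 treated libraries were lower than the untreated library of their number. The log2 fold change of −0.86 ± 0.41 (SE) had an adjusted p of 0.124 unpaired and 0.0278 with the block. Together Cd74 and the 3 classical chains took 0.370%, 0.360%, 0.104% and 0.240% of all counts in Romidepsin replicates 1 to 4, against 0.886%, 0.503%, 0.220% and 0.249% in untreated replicates 1 to 4.

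Among the non-classical genes, H2-DMb2 fell and H2-DMa, H2-DMb1, H2-Oa and H2-Ob did not pass. H2-DMb2, one of the beta chains of the peptide exchanger H2-M, was at 9.33, 6.97, 2.58 and 3.16 CPM in Romidepsin replicates 1 to 4, against 99.5, 23.6, 10.3 and 8.54 CPM in untreated replicates 1 to 4. Every treated library lay below the untreated library of its number, and the groups overlapped only through treated replicate 1 and untreated replicate 4. Its log2 fold change was −2.68 ± 0.82 (SE), with an adjusted p of 0.0327 by edgeR's quasi-likelihood test. Untreated replicate 1 stood far above the others, and without it the log2 fold change was −1.37 with an adjusted p of 0.0779, the change of smallest size under any setting tried. Without Romidepsin replicate 2 or Romidepsin replicate 4 the adjusted p was 0.0616 and 0.0839.

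H2-DMb1, the other H2-M beta chain, was at 69.2, 60.3, 57.8 and 61.2 CPM in Romidepsin replicates 1 to 4, against 156, 99.0, 68.8 and 57.5 CPM in untreated replicates 1 to 4. The treated libraries were close to each other, the untreated ones spread widely, and untreated replicate 4 lay below every treated library. The log2 fold change was −0.62 ± 0.29 (SE), with an adjusted p of 0.117 unpaired and 0.113 with the block. H2-DMa, the H2-M alpha chain, was at 110.1, 81.5, 103 and 100.4 CPM in Romidepsin replicates 1 to 4, against 241, 132, 106 and 76.0 CPM in untreated replicates 1 to 4. It was the gene with the smallest log2 fold change of the set, −0.49 ± 0.32 (SE; 95% interval −1.21 to 0.23), with an adjusted p of 0.249. With housekeeping scaling the log2 fold changes of H2-DMa and H2-DMb1 turned to 0.28 and 0.15, neither called.

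H2-Oa and H2-Ob, the chains of the H2-M inhibitor H2-O, had wide untreated spreads. H2-Oa was at 8.87, 9.89, 9.25 and 6.65 CPM in Romidepsin replicates 1 to 4, against 46.8, 16.8, 11.6 and 8.06 CPM in untreated replicates 1 to 4. The fold change on the log2 scale was −1.26 ± 0.50 (SE), with an adjusted p of 0.0740 unpaired and 0.0806 with the block. H2-Ob was at 18.9, 17.5, 14.3 and 12.1 CPM in Romidepsin replicates 1 to 4, against 61.3, 31.9, 16.5 and 10.6 CPM in untreated replicates 1 to 4. That gave a log2 fold change of −0.94 ± 0.48 (SE), with an adjusted p of 0.149 unpaired and 0.134 with the block. Both had their highest level in untreated replicate 1, as did all 10 genes.

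In all, 2 of the 10 genes were called lower and 0 higher by the unpaired test, against 16.2% of all genes lower and 20.3% higher. At an unadjusted p under 0.05, 6 were lower and 0 higher, and the DESeq2 Wald test gave 6 and 0 and limma-voom 1 and 0. Over all 12852 genes the DESeq2 Wald test called 2794 lower and limma-voom 2408. With the replicate block 6 of 10 were lower and 0 higher, against 20.8% of all genes lower and 21.2% higher. Groups without overlap, with Romidepsin lower, were seen for 1 of 10, against 16.5% of all genes. In all 4 pairs of equal number, 7 of 10 were lower, against 29.5% of all genes. The median log2 fold change was −1.33 over the classical chains, −0.94 over the 5 non-classical genes, −1.26 over all 10 and 0.01 over all genes tested. Untreated replicate 1 set much of that size: without it the 3 medians were −0.75, −0.34 and −0.62. Those with housekeeping scaling were −0.47, −0.11 and −0.42, where the median of all genes shifted by 0.70. In these bulk libraries, fewer cells that express a gene and less of its RNA per cell cannot be told apart.

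**Figure D2:**
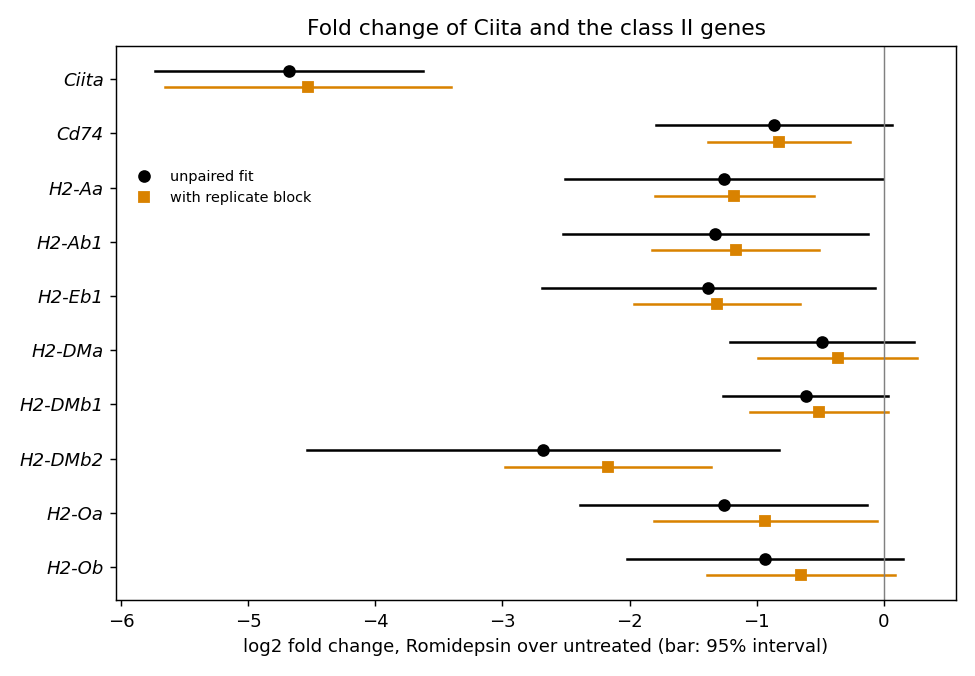
Log2 fold change of Romidepsin over untreated for the 10 genes with its 95% interval, from the unpaired fit (black circles) and the fit with the replicate number as a block (orange squares). Ciita lies at −4.68 and −4.53, away from the classical chains at −1.38 to −1.26 and −1.32 to −1.17, and the intervals of the classical chains are narrower with the block.

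Whether Ciita fell by more than the genes it serves was tested within each library, as the log2 ratio of its counts to those of each of the other 9 genes, which no scaling between libraries can alter. Ciita over H2-Ab1 was −8.56, −7.60, −5.82 and −6.67 in Romidepsin replicates 1 to 4, against −4.05, −4.10, −3.74 and −3.12 in untreated replicates 1 to 4. The groups did not overlap, and the treated ratio was lowest in replicate 1. The difference of the means was −3.41, so that 9.41% of the untreated ratio was left, with an exact two-sided permutation p of 0.0286, the smallest that 4 against 4 allows.

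For Cd74, H2-Aa and H2-Eb1 the difference in that log2 ratio was −3.75, −3.41 and −3.26. For H2-DMa, H2-DMb1, H2-Oa and H2-Ob it was −4.21, −4.07, −3.64 and −3.93. The ratio to H2-DMb2 differed least, by −2.43, and its groups lay nearest to each other, at −3.0 to 0 in Romidepsin cells and 0.06 to 2.47 in untreated cells. None of the 9 ratios overlapped between groups, and each exact permutation p was 0.0286, also after adjustment over the 9. The ratios share the Ciita counts and so are not independent of each other. Ciita stood at place 9 from the lowest fold change among 12852 genes, so its ratio to many other genes may separate as well. The share of all genes for which it does was not computed. The ratios are therefore not shown to be particular to class II genes. Leaving out an untreated library (replicate 1, 3 or 4 for H2-Aa, any of the 4 for H2-Eb1) raised the exact permutation p to 0.0571. For H2-DMb2 it was 0.0571 without Romidepsin replicate 1 or 2 or untreated replicate 2, and 0.114 without untreated replicate 3 or 4.

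**Figure D3:**
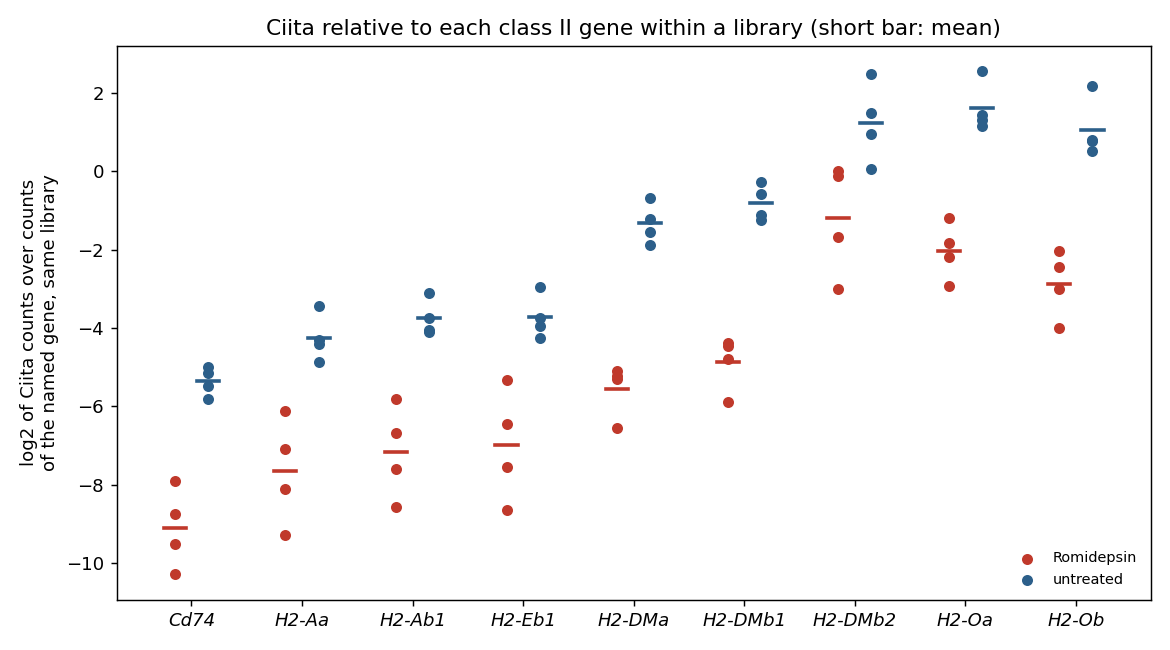
Log2 of Ciita counts over the counts of each of the other 9 genes in the same library, with Romidepsin libraries in red on the left of each pair, untreated libraries in blue on the right and short bars at the group means. Every untreated library lies above every Romidepsin library for all 9 genes, with the closest approach for H2-DMb2, where the highest Romidepsin value is 0 and the lowest untreated value 0.06.

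The replicate numbers differed in how much was left after Romidepsin. Relative to the untreated library of its number, Ciita was at 1.10%, 4.77%, 8.95% and 6.15% for numbers 1 to 4. H2-Ab1 was at 25.7%, 54.6%, 38.3% and 73.0%, and H2-Eb1 at 28.8%, 47.6%, 27.2% and 70.1%. H2-DMa was at 45.7%, 61.9%, 97.6% and 132%. Number 1 had the least left for Ciita, Cd74, H2-Ab1 and all 5 non-classical genes, while H2-Aa and H2-Eb1 had slightly less left for number 3. Number 4 had the most left for every gene but Ciita. For number 3 the classical chains were at 27.2% to 38.3% while H2-DMa, H2-DMb1, H2-Oa and H2-Ob were at 80.0% to 97.6%.

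**Figure D4:**
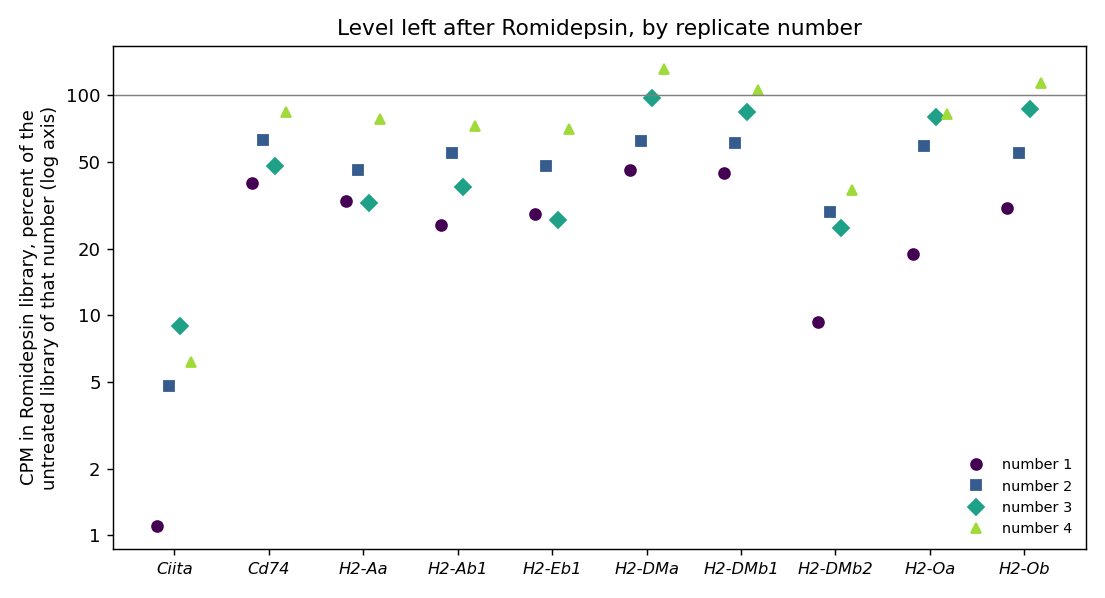
CPM in each Romidepsin library as a percent of the untreated library of the same replicate number (log axis), for the 10 genes, with a symbol for each number and a line at 100 percent. Ciita lies at 1.10% to 8.95%, H2-DMb2 at 9.38% to 37.1%, and the classical chains at 25.7% to 78.3%, while number 4 lies above 100 percent for H2-DMa, H2-DMb1 and H2-Ob.

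Per length, Cd74 stood highest and the classical chains next in both groups. In RPKM, which is TMM-scaled CPM per kilobase of annotated exon, Cd74 averaged 734 ± 256 in Romidepsin cells and 1335 ± 645 in untreated cells (SD, n = 4 each). The classical chains averaged 126 to 159 RPKM in Romidepsin cells and 302 to 415 RPKM in untreated cells, and their means differed from each other by less than the spread between libraries. H2-DMb1 averaged 36.9 ± 2.92 RPKM in Romidepsin cells and 56.7 ± 26.1 RPKM in untreated cells. H2-DMa was next, at 28.7 ± 3.55 RPKM in Romidepsin cells and 40.2 ± 20.9 RPKM in untreated cells.

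Below them stood H2-Oa, H2-DMb2, H2-Ob and Ciita. H2-Oa averaged 6.16 ± 1.0 RPKM in Romidepsin cells and 14.8 ± 12.6 RPKM in untreated cells, and H2-Ob averaged 2.92 ± 0.574 RPKM in Romidepsin cells and 5.59 ± 4.21 RPKM in untreated cells. H2-DMb2 averaged 3.16 ± 1.84 RPKM in Romidepsin cells, within the spread of H2-Ob, and 20.3 ± 24.7 RPKM in untreated cells, within the spread of H2-Oa. Ciita averaged 0.230 ± 0.0802 RPKM in Romidepsin cells, the lowest of the set by more than the spread, and 5.90 ± 3.44 RPKM in untreated cells, level with H2-Ob.

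The ratio between partner chains overlapped between the groups for 3 pairs and not for the pair with H2-DMb2. The RPKM ratio of H2-Aa to H2-Ab1, the chains of I-A, was 0.838 to 1.11 in Romidepsin libraries and 0.846 to 1.14 in untreated libraries. The ratio of H2-DMa to H2-DMb1 was 0.659 to 0.872 in Romidepsin libraries and 0.644 to 0.755 in untreated libraries, and that of H2-Oa to H2-Ob was 1.80 to 2.48 in Romidepsin libraries and 2.02 to 2.92 in untreated libraries. With the other beta chain, the ratio of H2-DMa to H2-DMb2 was 5.92 to 20.3 in Romidepsin libraries and 1.23 to 5.19 in untreated libraries, without overlap. The ratio of H2-DMb2 to H2-DMb1 also did not overlap between groups, at 0.130, 0.111, 0.0429 and 0.0498 in Romidepsin replicates 1 to 4, against 0.615, 0.229, 0.145 and 0.143 in untreated replicates 1 to 4. As a share of the counts of both H2-DMb genes, H2-DMb2 took 11.9%, 10.4%, 4.27% and 4.92% in Romidepsin replicates 1 to 4 and 39.0%, 19.2%, 13.1% and 12.9% in untreated replicates 1 to 4. These H2-DMb2 differences were noticed after the values were seen and are given without a test. The invariant chain was in excess in every library, with an RPKM ratio of Cd74 to H2-Ab1 of 5.05 to 6.44 in Romidepsin libraries and 3.24 to 5.58 in untreated libraries.

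Factors that bind the class II promoters did not move as one. Of the 7 tested, 1 was lower, 1 higher and 5 did not pass, with the block as without, against 16.2% of all genes lower and 20.3% higher, and the median log2 fold change was −0.10. Housekeeping scaling gave 0 lower and 3 higher. Nfyc, a subunit of NF-Y, fell by 0.95 ± 0.20 on the log2 scale (SE; adjusted p 0.00859), averaging 7.77 ± 1.16 CPM in Romidepsin cells and 15.05 ± 2.10 CPM in untreated cells (SD, n = 4 each). Nfyb, another NF-Y subunit, rose by 0.73 ± 0.17 (adjusted p 0.0105), averaging 30.5 ± 3.88 CPM in Romidepsin cells and 18.3 ± 2.20 CPM in untreated cells. Creb1, the CREB protein, had a log2 fold change of 0.05 ± 0.15 (95% interval −0.28 to 0.37), whose sign turned when Romidepsin replicate 3, untreated replicate 2 or both libraries of number 3 were left out. The RFX subunit genes Rfx5, Rfxank and Rfxap, singled out after their values were seen, had log2 fold changes of −0.27, −0.21 and 0.42, with adjusted p of 0.345, 0.413 and 0.0689.

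Among 13 genes that act upstream of Ciita, 7 fell, 0 rose and 6 did not pass, against 16.2% and 20.3% of all genes. The list was not split into genes that raise and genes that restrain Ciita. The 7 include Prdm1 and Socs1, with log2 fold changes of −1.73 ± 0.46 and −1.19 ± 0.35 (SE). Their adjusted p by edgeR's quasi-likelihood test was 0.0186 and 0.0261. At an unadjusted p under 0.05, 8 were lower and 0 higher by edgeR, the DESeq2 Wald test gave 8 and 0 and limma-voom 7 and 0, while the block gave 9 lower and 1 higher (Irf4). Housekeeping scaling gave 2 lower and 1 higher, and the calls of Ifngr2 and Irf2 were among those lost. The number lower was 3 without Romidepsin replicate 4, 4 without both libraries of number 1 and 10 without Romidepsin replicate 3. Ifngr2, a chain of the interferon gamma receptor, averaged 101 ± 23.2 CPM in Romidepsin cells and 204 ± 19.1 CPM in untreated cells, a log2 fold change of −1.01 ± 0.19 (SE; adjusted p 0.00513). Usf1, which binds the interferon-responsive Ciita promoter, averaged 44.0 ± 17.3 CPM in Romidepsin cells and 119.7 ± 23.1 CPM in untreated cells, a log2 fold change of −1.44 ± 0.28 (adjusted p 0.00564). Irf2, an interferon regulatory factor, averaged 81.0 ± 30.9 CPM in Romidepsin cells and 185 ± 38.3 CPM in untreated cells, a log2 fold change of −1.19 ± 0.27 (adjusted p 0.0103). All 3 had no overlap between the groups, with Romidepsin lower, as had 16.5% of all genes. They were named for the smallest p of the list. Of the rest of the list only Jak2 and Spi1 also had no overlap.

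Irf8, the most highly expressed of those not called, had a log2 fold change of −0.46 ± 0.23 (SE; adjusted p 0.140). Spi1, which encodes the myeloid factor PU.1 and was singled out after its values were seen, was at 28.1, 20.4, 225 and 90.7 CPM in Romidepsin replicates 1 to 4, against 483, 618, 618 and 433 CPM in untreated replicates 1 to 4. This was a log2 fold change of −2.56 ± 0.69 (adjusted p 0.0204), and treated replicate 3 kept the most of it. The call of Spi1 was lost without Romidepsin replicate 4 (adjusted p 0.0552), without both libraries of number 1 (0.0612) and with no count filter (0.0892).

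**Figure D5:**
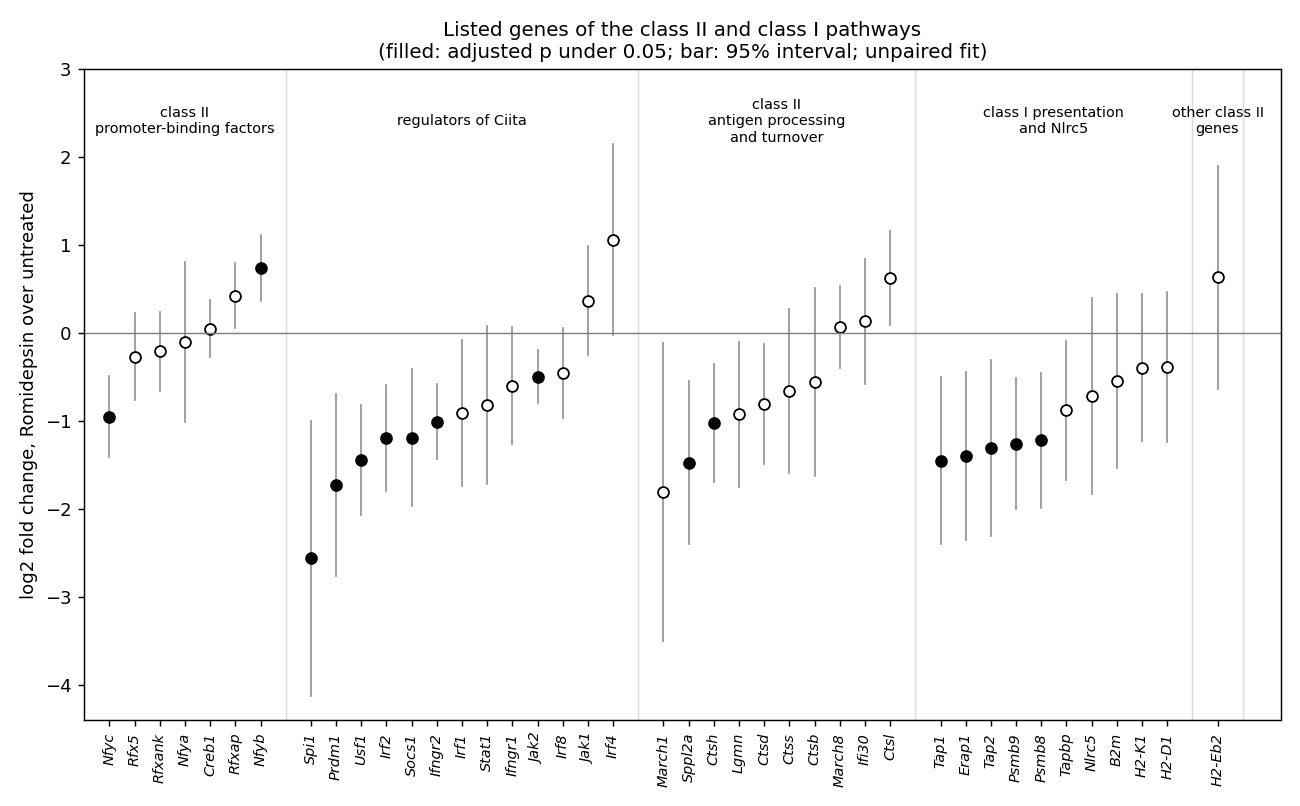
Log2 fold change of Romidepsin over untreated with its 95% interval, from the unpaired fit, for the 41 tested genes of 5 lists around the class II pathway, with filled points where the adjusted p is under 0.05. Called genes lie below 0 in the lists of Ciita regulators (7 of 13), antigen processing (2 of 10) and class I presentation (5 of 10), while the promoter-binding factors hold 1 called on each side, Nfyc at −0.95 and Nfyb at 0.73.

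Of 10 genes that process antigen for class II or turn the molecule over, 2 were lower, 0 higher and 8 did not pass, and with the block 7 were lower and 1, Ctsl, higher. All genes tested had 16.2% lower, near the unpaired share, and 20.8% with the block. The unpaired count was 0 lower without Romidepsin replicate 1, 2 or 4 or untreated replicate 3, 1 without untreated replicate 2 or 4 or both libraries of number 1, 5 without Romidepsin replicate 3 and 4 with number 3 left out of both groups. Scaling to housekeeping genes gave 0 lower and 2 higher. At an unadjusted p under 0.05 the unpaired test had 5 lower and 1 higher, as did the DESeq2 Wald test, and limma-voom had 4 and 1. Sppl2a, a protease that clears the last membrane fragment of Cd74, averaged 107 ± 57.6 CPM in Romidepsin cells and 298 ± 106 CPM in untreated cells, with a log2 fold change of −1.47 ± 0.41 (SE; adjusted p 0.0224). Ctsh, a cathepsin, averaged 291 ± 119.6 CPM in Romidepsin cells and 592 ± 94.0 CPM in untreated cells, with a log2 fold change of −1.03 ± 0.30 (adjusted p 0.0264). Sppl2a passed in 13 of 19 alternatives, with an adjusted p of at most 0.0812, and Ctsh in 12, with at most 0.222. Ctsb, another cathepsin and the most abundant of the list, had a log2 fold change of −0.56 ± 0.47, with an adjusted p of 0.365 unpaired and 0.0336 with the block. With housekeeping scaling the sign turned for Irf8 and Ctsb, to 0.27 and 0.043.

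The class I pathway, which shows peptides from the cytosol, had 5 of 10 genes lower, 0 higher and 5 that did not pass, against 16.2% of all genes lower and 20.3% higher. At an unadjusted p under 0.05, 6 were lower and 0 higher, and the DESeq2 Wald test gave 6 and 0, limma-voom 5 and 0 and the block 7 and 0. The count depended on single libraries: it was 0 lower without Romidepsin replicate 4 or untreated replicate 3, 1 without Romidepsin replicate 1 or 2 or untreated replicate 2, and 3 without untreated replicate 4. It was also 0 lower with housekeeping scaling or without both libraries of number 1, and 3 with no count filter. Psmb9 and Psmb8, subunits of the immunoproteasome, had log2 fold changes of −1.26 ± 0.33 (SE; adjusted p 0.0181) and −1.22 ± 0.34 (adjusted p 0.0227). Tap1, a part of the peptide transporter, had −1.45 ± 0.42 (adjusted p 0.0261), and the other 2 called genes were Tap2 and Erap1. Psmb9 passed in 15 of 19 alternatives and Psmb8 and Tap1 in 12 each. B2m, the class I light chain, had −0.55 ± 0.44 (adjusted p 0.338), which turned to 0.091 with housekeeping scaling. Nlrc5, the relative of Ciita known for driving class I genes and singled out after its values were seen, averaged 107 ± 73.3 CPM in Romidepsin cells and 175 ± 63.1 CPM in untreated cells. Its log2 fold change of −0.71 ± 0.49 had an adjusted p of 0.273 unpaired and 0.0303 with the block.

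Of the other class II genes on the list, the inactive alpha chain gene H2-Ea-ps had 3 counts over all 8 libraries and was not tested. H2-Eb2, a beta chain gene next to H2-Eb1, averaged 7.41 ± 6.09 CPM in Romidepsin cells and 4.80 ± 0.766 CPM in untreated cells (SD, n = 4 each). Its log2 fold change was 0.63 ± 0.56 (SE; adjusted p 0.393), the opposite sign to H2-Eb1. Within the class II region, between H2-Oa and H2-Eb1, 5 tested genes were not of the set. Of them 4, Psmb9, Tap1, Psmb8 and Tap2, were called lower, against 16.2% of all genes. These 4 were already counted among the called class I genes above, so they are not a separate result. The number called lower in the region was 0 without Romidepsin replicate 4 or untreated replicate 3, with housekeeping scaling or without both libraries of number 1. It was 1 without Romidepsin replicate 1 or 2 or untreated replicate 2. The fifth, Brd2, whose exons overlap those of H2-DMa, had a log2 fold change of 0.01 ± 0.18 (95% interval −0.40 to 0.41).

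Across the 8 libraries, likeness to a gene was measured as the root mean square difference of log2 CPM after each gene was centred on its own mean, so that 0 would be an identical profile. Among 9025 candidates, the genes most like Ciita were Ltb at 0.62, Asprv1 at 0.68, Asgr2 at 0.77, A930007I19Rik at 0.82 and Il1f9 at 0.85. The class II gene nearest to Ciita was H2-DMb2 at 1.48, and the others lay between 1.72 and 2.02. The gene nearest to H2-Ab1 was H2-Aa at 0.16, followed by H2-Eb1 at 0.18 and Cd74 at 0.29, and the nearest outside the set were Ifi27 at 0.41, Ube2c at 0.46, Pclaf and Ccna2 at 0.49 and Cdc20 at 0.49. Those most like Cd74 outside the set were Cdc20 at 0.27, Ube2c at 0.32, Pclaf at 0.33, Ccnb1 at 0.34 and Lsm2 at 0.35. The measure includes the difference between the groups as well as the spread within them.

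Markers of the cell types best known for class II were read in the same libraries. Of 10 B cell markers, 7 were called lower and 0 higher by edgeR (8 and 0 at an unadjusted p under 0.05 and by both other tools), against 16.2% of all genes lower. The number was 9 with the block or without Romidepsin replicate 2. It was 4 without Romidepsin replicate 1 or 4, without untreated replicate 2, without both libraries of either number 1 or number 3, and with housekeeping scaling. Their summed level was 39.3, 458, 100.2 and 111 CPM in Romidepsin replicates 1 to 4, against 326, 1023, 535 and 299.6 CPM in untreated replicates 1 to 4. This sum was highest in untreated replicate 2, and Romidepsin replicate 2 lay above untreated replicates 1 and 4. Of 10 dendritic cell markers 9 were in the table and 5 tested, with 1 (Ccr7) lower, against 16.2% of all genes. The sum of the 9 was 119, 87.2, 23.7 and 52.5 CPM in Romidepsin replicates 1 to 4. In untreated replicates 1 to 4 it was 253, 157, 102 and 113 CPM. Replicate 1 had the highest sum and replicate 3 the lowest in either group. Itgax was at 93.0, 16.7, 5.75 and 26.9 CPM in Romidepsin replicates 1 to 4, against 155, 13.4, 9.35 and 34.5 CPM in untreated replicates 1 to 4. Itgax and Flt3 were highest in untreated replicate 1. The other tested dendritic cell markers were not: Ccr7 and Batf3 were highest in untreated replicate 2, and Zbtb46 in Romidepsin replicate 2. Of the markers not tested, Xcr1 and Siglech stayed at or below 0.165 CPM in every library. Cd209a and Clec9a were highest in untreated replicate 1, at 1.60 and 0.958 CPM, which rest on 20 and 12 counts. In the other libraries Cd209a was at most 0.328 CPM and Clec9a at most 0.775 CPM. The sum of 10 macrophage markers was 1465, 3164, 8381 and 5076 CPM in Romidepsin replicates 1 to 4. It was 5742, 11071, 14169 and 12482 CPM in untreated replicates 1 to 4, with untreated replicate 1 the lowest of that group. Of these markers 1 (Ccr2) was lower unpaired and 8 with the block, against 16.2% and 20.8% of all genes. The part of these cell types in the class II results was not tested.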

How the data were processed

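RNA was counted in 8 libraries, 4 per group. The values are raw counts, whole numbers of reads per Ensembl gene as deposited by the authors in 1 table. Per the labels' protocols the RNA was poly(A)-selected and sequenced on an Illumina NextSeq. The submitters' processing notes name FastQC, STAR 2.5.2a, DESeq2 and GRCm38 (mm10). The counting tool, strand setting and annotation release are among what is not given in the sources used here, so overlapping genes and close copies may share reads. Of 26930 identifiers, 26881 matched a symbol. Totals of 12996892 to 23176949 counts per library mean that a gene near 1 CPM rests on few counts.

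Groups came from the sample titles. Genes were kept by filterByExpr in edgeR 4.0.16 (R 4.3.3), scaled by TMM and compared unpaired by the quasi-likelihood F test (two-sided, robust), with Benjamini-Hochberg adjustment over 12852 genes and a threshold of 0.05. The script was tested on simulated data. Log2 ratios of Ciita to each other gene used counts plus 0.5 and an exact two-sided permutation test over samples, adjusted over 9 ratios. Libraries of equal replicate number deviated together from their group means, with correlations of 0.526, 0.217, 0.469 and 0.131 for numbers 1 to 4 and at most 0.0702 between different numbers. The correlations of equal numbers all exceed 0.1, so these libraries were compared as pairs and used as a block in an alternative fit. The main test and the permutation test stayed unpaired. The pairing is read from the data, as no label says what a number marks, and the block fit stands beside a result where it changes a call.

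The members and lists were chosen with earlier results of these data known. All 10 genes are named. Of each pathway list up to 3 called genes with the smallest p and the most highly expressed uncalled gene are named, and for Ciita, Cd74 and H2-Ab1 the 5 most alike genes outside the set with a mean of at least 10 CPM. Any other gene was chosen after its values were seen. Alternatives were other scalings, filters and tools (DESeq2 1.42.0, limma-voom in limma 3.58.1), the replicate block and leaving out libraries.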

Additional observations from a re-analysis of the deposited data

Results flagged for a closer look

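With 4 libraries in a group, a library was looked at again where its gap to the nearest other exceeded the bound of Dixon's test, which chance does in about 1 in 20 groups. Of 54 groups examined, 4 were past it. H2-DMb2 in untreated replicate 1 was at 99.5 CPM, while the other untreated libraries were at 8.54 to 23.6 CPM. The log2 ratio of Ciita to H2-DMa in Romidepsin replicate 1 was −6.55, while the other Romidepsin libraries were at −5.31 to −5.10. The summed level of 6 stromal markers was 174 CPM in Romidepsin replicate 2, while the others of that group were at 6.39 to 7.80 CPM. In untreated replicate 2 that sum was 59.6 CPM, while the others were at 3.72 to 7.63 CPM, so both libraries of number 2 stood apart for these markers. Their part in the class II values was not tested.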

How the results depend on the processing

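Ciita was called lower in all 19 alternatives, with log2 fold changes from −5.0 to −3.96 and an adjusted p of at most 0.00431. H2-DMb2 was called in 12 of 19. The number of the 10 genes called lower, 2 as reported, was 1 with housekeeping scaling, with no count filter, with limma-voom and without either library of number 1, the last an alternative chosen after seeing the data. In each of these H2-DMb2 was the call lost, with an adjusted p of 0.0741, 0.130, 0.0901 and 0.0580. The number was 6 with the replicate block and 6 with the DESeq2 Wald test, which added H2-Aa, H2-Ab1, H2-Eb1 and H2-Oa. Leaving out 1 library gave 1 to 5. It was 1 without Romidepsin replicate 2 or 4 or untreated replicate 1, and 5 without untreated replicate 4, where H2-DMb1, H2-Oa and H2-Ob also passed. No gene of the set was called higher in any alternative. Housekeeping scaling, which shifted the median log2 fold change by 0.70, turned the sign of H2-DMa (0.28), H2-DMb1 (0.15), Irf8 (0.27), Ctsb (0.043) and B2m (0.091), none called. Creb1 turned to −0.022 with both libraries of number 3 left out, and leaving out 1 library gave −0.027 to 0.13. The log2 ratio of Ciita to another gene kept its direction in all 81 alternatives and an exact permutation p under 0.05 in 69. With 1 library left out the ratio to H2-Aa differed by −3.91 to −2.86, that to H2-Eb1 by −3.82 to −2.72 and that to H2-DMb2 by −2.83 to −1.83, and these lost the threshold in some of those settings, as given with the result. The block of replicate numbers was not used for these ratios, whose permutation took all 8 libraries as unpaired. A permutation kept within the 4 pairs was not run and could not reach a p under 0.05. Apart from the calls named here and with the results, the block changed no call among the 10 genes. Depth limits Ciita in Romidepsin cells, where it rests on 20 to 45 counts.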
